A study of Homo sapiens with 24 samples.

Results

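The 10 genes described here are β-catenin (CTNNB1), its DNA-binding partners TCF7L2, TCF7L1, TCF7 and LEF1, the feedback inhibitors AXIN2, RNF43, ZNRF3 and NKD1, and the target gene MYC. They were chosen by name from the 58138 gene names of the count tables, with earlier results of these data known. In the canonical Wnt pathway, a Wnt ligand bound to Frizzled and LRP receptors stops a destruction complex built on axin and APC from degrading β-catenin, which then enters the nucleus and activates genes through TCF and LEF factors. Several of the activated genes encode inhibitors of the same pathway, so their transcripts are widely used as readouts of its activity, in the gut epithelium above all. RPRD1B, also called CREPT, is an RNA polymerase II-associated protein that binds the polymerase's C-terminal domain, and it has been reported to enhance transcription by β-catenin and TCF4, the protein encoded by TCF7L2. Its paralogs RPRD1A and RPRD2 bind the same domain. The question addressed was whether transcripts of these genes differed when RPRD1B was lowered by siRNA or raised from an inducible line.

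RNA from 24 samples in 12 groups of 2 was analysed. HEK293T, a human embryonic kidney cell line that carries SV40 large T antigen, was transfected with siRNAs for 48 h and gave 16 samples: a control siRNA group, the single knockdowns RPRD1B_KD, RPRD1A_KD and RPRD2_KD, the double knockdowns RPRD1B_RPRD2_KD, RPRD1A_RPRD2_KD and RPRD1A_RPRD1A_KD, and the triple knockdown RPRD1A_RPRD1B_RPRD2_KD. Flp-In T-REx 293, a related line with a single integration site and the tetracycline repressor, gave 8 samples: the parent line without tetracycline (FLP) and with it (FLP_TET), and a line labelled RPRD1B_FL without and with tetracycline (RPRD1B_FL and RPRD1B_FL_TET), tetracycline having been given for 48 h. The labels explain neither FL nor the doubled name in RPRD1A_RPRD1A_KD, which is used as labelled, and they do not say how many clones the RPRD1B_FL line comprised or whether the 2 samples of a group came from separate cultures. The p-values therefore measure only the spread between these samples, which may be technical. The RPRD1B_FL line and its parent differ by line as well as by RPRD1B, and these cannot be told apart.

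Libraries were made with a kit that reads transcripts from their 3′ ends. A HEK293T library held 1817246 to 3135625 counts in genes and a Flp-In library 2342969 to 3531106, so that 3 counts, used as the floor of detection, corresponded to 0.85 to 1.65 CPM (counts scaled to library size, per 1e6 counts). Of 9 marker genes of these kidney lines, 6 had a mean above 10 CPM over the 24 libraries. The 9 summed to 195 to 292 CPM in HEK293T and 636 to 853 CPM in Flp-In. NEFL, INA and KRT8 exceeded 10 CPM in Flp-In alone (means 114, 18.4 and 46.9 CPM, against 3.08, 9.95 and 3.96 CPM in HEK293T). NEFM and EYA1 did so in HEK293T alone (11.4 and 10.2 CPM, against 1.89 and 9.17 CPM), and PAX2 in neither. Markers of colon epithelium summed to at most 0.89 CPM in any library, with CDX1 and CDH17 at 0, and endothelial markers to at most 1.02 CPM. Fibroblast markers summed to 6.32 to 17.5 CPM in HEK293T and 2.22 to 6.08 CPM in Flp-In, with COL1A2 and DCN at 0. One library stood apart: the second RPRD1A_RPRD2_KD library lay at -50.7 on the first principal component of the HEK293T libraries (29.1% of the variance), against -2.41 to 11.4 for the others. Its deviations from the mean of the libraries correlated with transcript GC content across 8608 genes (Spearman's rho 0.46, other HEK293T libraries -0.24 to 0.12). The RPRD1B siRNA effect on each of the 10 genes is given with and without it. In Flp-In the same GC correlation ran from -0.55 to 0.6 across libraries.

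RPRD1B was first examined in every group. In control siRNA cells it was at 27.8 and 27.5 CPM. It was at 10.2 and 6.05 CPM in RPRD1B_KD, 11.2 and 3.87 CPM in RPRD1B_RPRD2_KD and 14.3 and 6.27 CPM in RPRD1A_RPRD1B_RPRD2_KD, all below every control library. RPRD1A_RPRD1A_KD, whose label does not name RPRD1B, had 13.7 and 7.87 CPM, a mean of 39.1% of control. RPRD1B_KD against control alone gave -1.77 for RPRD1B, which did not pass edgeR's test (adjusted p = 1). The RPRD1B siRNA effect was defined from the labels alone, as the mean difference over 3 matched pairs of groups whose names differ by RPRD1B: RPRD1B_KD against control, RPRD1B_RPRD2_KD against RPRD2_KD, and RPRD1A_RPRD1B_RPRD2_KD against RPRD1A_RPRD2_KD. RPRD1B fell by 1.58 on the log2 scale (SE 0.24, edgeR's quasi-likelihood test with Benjamini-Hochberg adjustment over all genes, adjusted p = 0.0318). The call was lost with only the compared groups in the fit (adjusted p = 0.052). It was also lost without either control library, the first RPRD2_KD library, or the second library of RPRD1B_KD, RPRD1A_RPRD2_KD, RPRD1B_RPRD2_KD or RPRD1A_RPRD1B_RPRD2_KD (adjusted p = 0.0689 to 0.139), while the estimate stayed between -1.91 and -1.41.

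In Flp-In, RPRD1B was at 36.1 and 35.3 CPM in FLP, 30.8 and 30.4 CPM in FLP_TET, 44.8 and 45.3 CPM in RPRD1B_FL, and 89.1 and 67.2 CPM in RPRD1B_FL_TET. It rose by 1.34 in RPRD1B_FL_TET against FLP_TET (log2, SE 0.19, edgeR adjusted p = 3.23e-04), and the difference of 0.34 without tetracycline did not pass the test (adjusted p = 0.468). A transgene's reads enter these counts only where they match the annotated RPRD1B gene. RPRD1A moved as well in the induced line: its libraries had 27 and 25.4 CPM in RPRD1B_FL_TET against 57.9 and 54.1 CPM in FLP_TET (log2 fold change -1.11, SE 0.2, edgeR adjusted p = 0.00463), a call lost without either FLP_TET library (adjusted p = 0.128 and 0.0691). In HEK293T, RPRD1A also lay below control (152 and 161 CPM) where the labels do not name it: RPRD1B_KD had 83.5 and 99.9 CPM (-0.77, unadjusted p = 0.00286, edgeR adjusted p = 1), RPRD2_KD 72.4 and 96.9 CPM (-0.88, adjusted p = 1) and RPRD1B_RPRD2_KD 67.8 and 82.6 CPM (-1.06, adjusted p = 0.629). Over the 3 matched pairs of the RPRD1B siRNA effect it differed by -0.17 (adjusted p = 0.876). The part of RPRD1A in the results below was not tested.

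Against these changes of RPRD1B, 0 of the 10 Wnt genes passed the test in any of the 14 comparisons. All 10 genes had enough counts to be tested in each. At most 1.18% of all genes were called in any of them. A count of 0 among 10 genes is therefore usual and does not show that they were unchanged. In the RPRD1B siRNA effect, where 0.0254% of all genes were called (GIPC1, RASL10B and RPRD1B itself, all lower), 0 of 10 were called by edgeR or DESeq2 and 0 had an unadjusted edgeR p under 0.05. Their median log2 fold change was 0.06, beside 0.01 over all genes. Without the second RPRD1A_RPRD2_KD library the siRNA effects were 0.05 for CTNNB1, -0.03 for TCF7L2, 0.03 for TCF7L1, -0.08 for TCF7, -0.09 for LEF1, -0.47 for AXIN2, 0.19 for RNF43, 0.12 for ZNRF3, -0.07 for NKD1 and 0.23 for MYC, with 0 called by edgeR, so TCF7L2 and LEF1 changed sign. In RPRD1B_FL_TET against FLP_TET 1.11% of all genes were called, and again 0 of the 10 by either tool, with 0 at an unadjusted p under 0.05 and a median of 0.01 beside 0. In RPRD1B_FL against FLP the background was 1.18%, and 0 of 10 were called by either tool, with MYC alone at an unadjusted p under 0.05 and a median of 0.12 beside 0.01. The 95% intervals bound what these libraries leave possible: the widest of the siRNA effect ran from -0.91 to 0.11 for AXIN2 and from -0.13 to 0.94 for ZNRF3, the narrowest from -0.09 to 0.26 for CTNNB1.

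**Figure D1:**
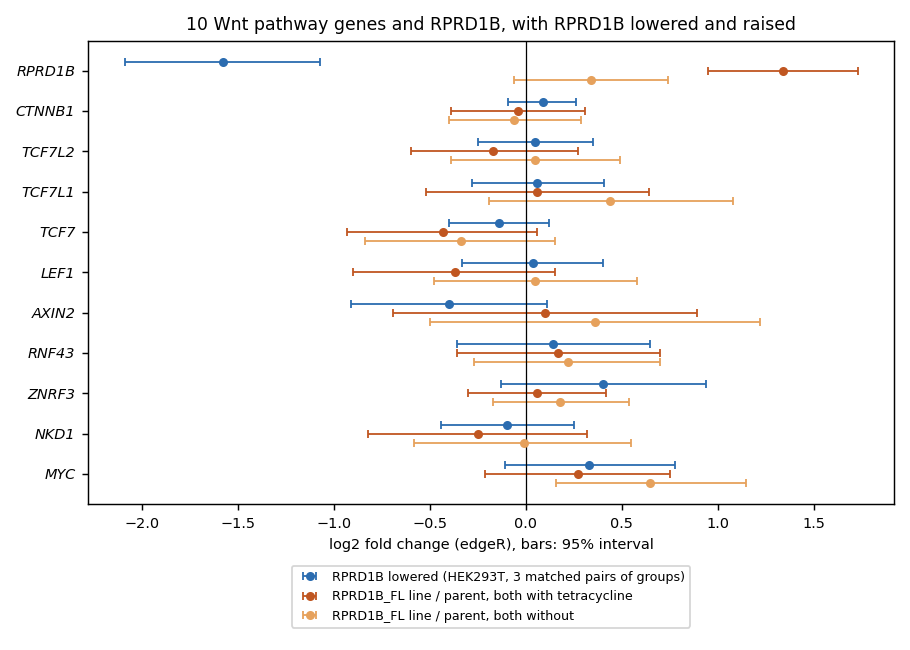
The plot gives the log2 fold change (horizontal axis, edgeR) of RPRD1B and the 10 Wnt genes with 95% intervals as bars, for the RPRD1B siRNA effect over 3 matched pairs of groups (blue), RPRD1B_FL_TET against FLP_TET (dark orange) and RPRD1B_FL against FLP (light orange). RPRD1B lies at -1.58, 1.34 and 0.34, whereas every interval of the 10 genes covers 0 except that of MYC in RPRD1B_FL against FLP (0.16 to 1.15).

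CTNNB1 (GRCh38, chr3:41194741-41260096, plus strand) encodes β-catenin, the coactivator that the pathway stabilises. It was the most deeply counted of the 10, with 565 to 1110 counts per library. HEK293T libraries ran from 321 through a median of 360 to 394 CPM and Flp-In libraries from 215 through 291 to 314 CPM. The 2 lines thus did not overlap with the TMM scaling used here. Without TMM factors they did, with 303 CPM in the second RPRD1A_RPRD2_KD library and 305 CPM in the second FLP library. Within HEK293T, control cells had 343 and 359 CPM and RPRD1B_KD 323 and 361 CPM, and the groups overlapped. RPRD1B_RPRD2_KD (363 and 394 CPM) lay above RPRD2_KD (341 and 359 CPM), and RPRD1A_RPRD1B_RPRD2_KD (376 and 394 CPM) above RPRD1A_RPRD2_KD (366 and 321 CPM). Groups of 2 libraries can separate through their spread alone. Here and for the genes below, the share of all genes that separate was not counted, so separation only describes the libraries. The siRNA effect was 0.09 (SE 0.08, edgeR adjusted p = 0.889). In Flp-In the induced line had 215 and 314 CPM and the induced parent 252 and 288 CPM, a difference of -0.04 (95% interval -0.39 to 0.31), and RPRD1B_FL against FLP gave -0.06. β-catenin activity is regulated mainly through protein stability, which these data do not measure. The 3′ end of CTNNB1 overlaps ULK4 on the other strand, and the strand setting of the counting is not given in the sources used here.

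The 4 DNA-binding partners share a high mobility group domain that binds CTTTG-containing sites. TCF7L2 encodes TCF4, the factor through which RPRD1B was reported to act, TCF7L1 encodes TCF3, mostly known as a repressor of Wnt targets, and TCF7 and LEF1 encode TCF1 and LEF1, both also known as Wnt targets themselves. Promoter windows of 300 bases (250 before to 50 after a RefSeq transcript start, GRCh38.p14) were available for 6 of the 10 genes and were searched on both strands for 4 words: the word CTTTGAA, the word CTTTGAT, the word CTTTGTA and the word CTTTGTT. Such a word was in 13.8% of all 35116 windows and in 2 of the 10 windows of the 6 genes (20%), each at a start inside the gene rather than its first one. These windows are shown because both belong to TCF genes that could bind such a word, with the word in capitals. In TCF7L2 (chr10:113126383-113126682, plus strand) CTTTGTT starts 133 bases before the transcript start. In TCF7 (chr5:134123368-134123667, plus strand) the same word lies on the minus strand, where it reads AACAAAG on the plus strand, beginning 50 bases before the start.
TCF7L2: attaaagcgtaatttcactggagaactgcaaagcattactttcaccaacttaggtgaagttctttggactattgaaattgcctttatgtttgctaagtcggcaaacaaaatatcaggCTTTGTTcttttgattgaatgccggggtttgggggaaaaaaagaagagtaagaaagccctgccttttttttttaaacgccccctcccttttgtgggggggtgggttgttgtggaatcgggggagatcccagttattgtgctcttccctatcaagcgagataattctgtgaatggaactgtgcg
TCF7: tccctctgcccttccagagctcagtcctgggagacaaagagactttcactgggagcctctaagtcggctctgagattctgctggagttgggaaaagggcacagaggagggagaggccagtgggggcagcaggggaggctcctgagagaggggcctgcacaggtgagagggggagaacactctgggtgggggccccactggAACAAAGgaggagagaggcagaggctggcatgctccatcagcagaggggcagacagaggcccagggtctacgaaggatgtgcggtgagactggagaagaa
A match describes letters only, and reads from 3′ ends do not tell apart transcripts that begin at different starts.

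TCF7L2 (chr10:112950250-113167678, plus strand) was at 21.1 to 34.6 CPM in HEK293T, median 28.4, and at 32 to 49.2 CPM in Flp-In, median 40.8. Control cells had 21.1 and 30.6 CPM, RPRD1B_KD 29.4 and 34.6 CPM, and the groups overlapped, as did the other matched pairs. The siRNA effect was 0.05 (95% interval -0.25 to 0.35). The induced RPRD1B_FL line had 47.2 and 35.2 CPM and the induced parent 42.8 and 49.2 CPM, a log2 difference of -0.17 (-0.6 to 0.27). The transcript of the factor through which RPRD1B was reported to act thus showed no difference detectable beyond the spread between libraries in either direction.

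TCF7L1 (chr2:85133410-85310388, plus strand) was the lowest of the factors, at 10.7 to 18.4 CPM in HEK293T and 7.17 to 12.2 CPM in Flp-In. Its 2 control libraries had 11.7 and 12 CPM, close together and near the lower edge of the HEK293T libraries. RPRD1B_KD (12.3 and 15.5 CPM) lay above them and RPRD1B_RPRD2_KD (15.4 and 18.4 CPM) above RPRD2_KD (15.1 and 12.5 CPM). RPRD1A_RPRD1B_RPRD2_KD (10.7 and 16.7 CPM) lay below RPRD1A_RPRD2_KD (18.4 and 17.2 CPM), so the 3 pairs did not overlap but did not share a direction. Parent Flp-In cells without tetracycline had 7.98 and 7.17 CPM, below the other 6 Flp-In libraries at 9.14 to 12.2 CPM, and RPRD1B_FL_TET (12.2 and 12 CPM) lay just above FLP_TET (11.4 and 11.6 CPM). The siRNA effect was 0.06 (95% interval -0.28 to 0.41), RPRD1B_FL_TET against FLP_TET gave 0.06 (-0.52 to 0.64) and RPRD1B_FL against FLP gave 0.44 (-0.19 to 1.08). None of these passed the test. Separations of 2 libraries from 2 were not counted over all genes, so these are not shown to be particular to TCF7L1.

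TCF7 (chr5:134114711-134151865, plus strand) was at 20.3 to 33.4 CPM in HEK293T and 16.9 to 33 CPM in Flp-In. RPRD1B_KD cells (20.3 and 22.5 CPM) lay below control cells (26.1 and 27.9 CPM), and RPRD1A_RPRD1B_RPRD2_KD (24.5 and 24.2 CPM) below RPRD1A_RPRD2_KD (25.3 and 33.4 CPM), but RPRD1B_RPRD2_KD (26.2 and 20.3 CPM) overlapped RPRD2_KD (20.5 and 21.2 CPM). Over the 3 pairs the difference was -0.14 (95% interval -0.4 to 0.12). Raising RPRD1B gave an estimate of the same sign: the RPRD1B_FL line had 26.3 and 16.9 CPM against 25.3 and 33 CPM with tetracycline, a difference of -0.43 (-0.93 to 0.06, edgeR adjusted p = 0.571; -0.78 to -0.17 with single libraries left out), and 21.9 and 21.7 CPM against 26.6 and 28.7 CPM without it, a difference of -0.34 (-0.84 to 0.15). The libraries overlapped with tetracycline and not without it. TCF7 overlaps SKP1 on the other strand at its 3′ end.

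LEF1 (chr4:108047545-108168956, minus strand) was at 13 to 26.2 CPM in HEK293T and 16.7 to 26.1 CPM in Flp-In. RPRD1B_KD (17.1 and 20.9 CPM) lay below control (21.1 and 26.2 CPM), and the other matched pairs overlapped. The siRNA effect was 0.04 (95% interval -0.33 to 0.4). With tetracycline, RPRD1B_FL cells had 22.5 and 17.8 CPM and parent cells 25.9 and 26.1 CPM, which do not overlap, and the log2 difference of -0.37 (-0.9 to 0.15) did not pass the test (edgeR adjusted p = 0.673). Without tetracycline the values were 25.5 and 17.1 CPM against 16.7 and 24.1 CPM, a difference of 0.05. LEF1 has an antisense gene, LEF1-AS1.

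**Figure D2:**
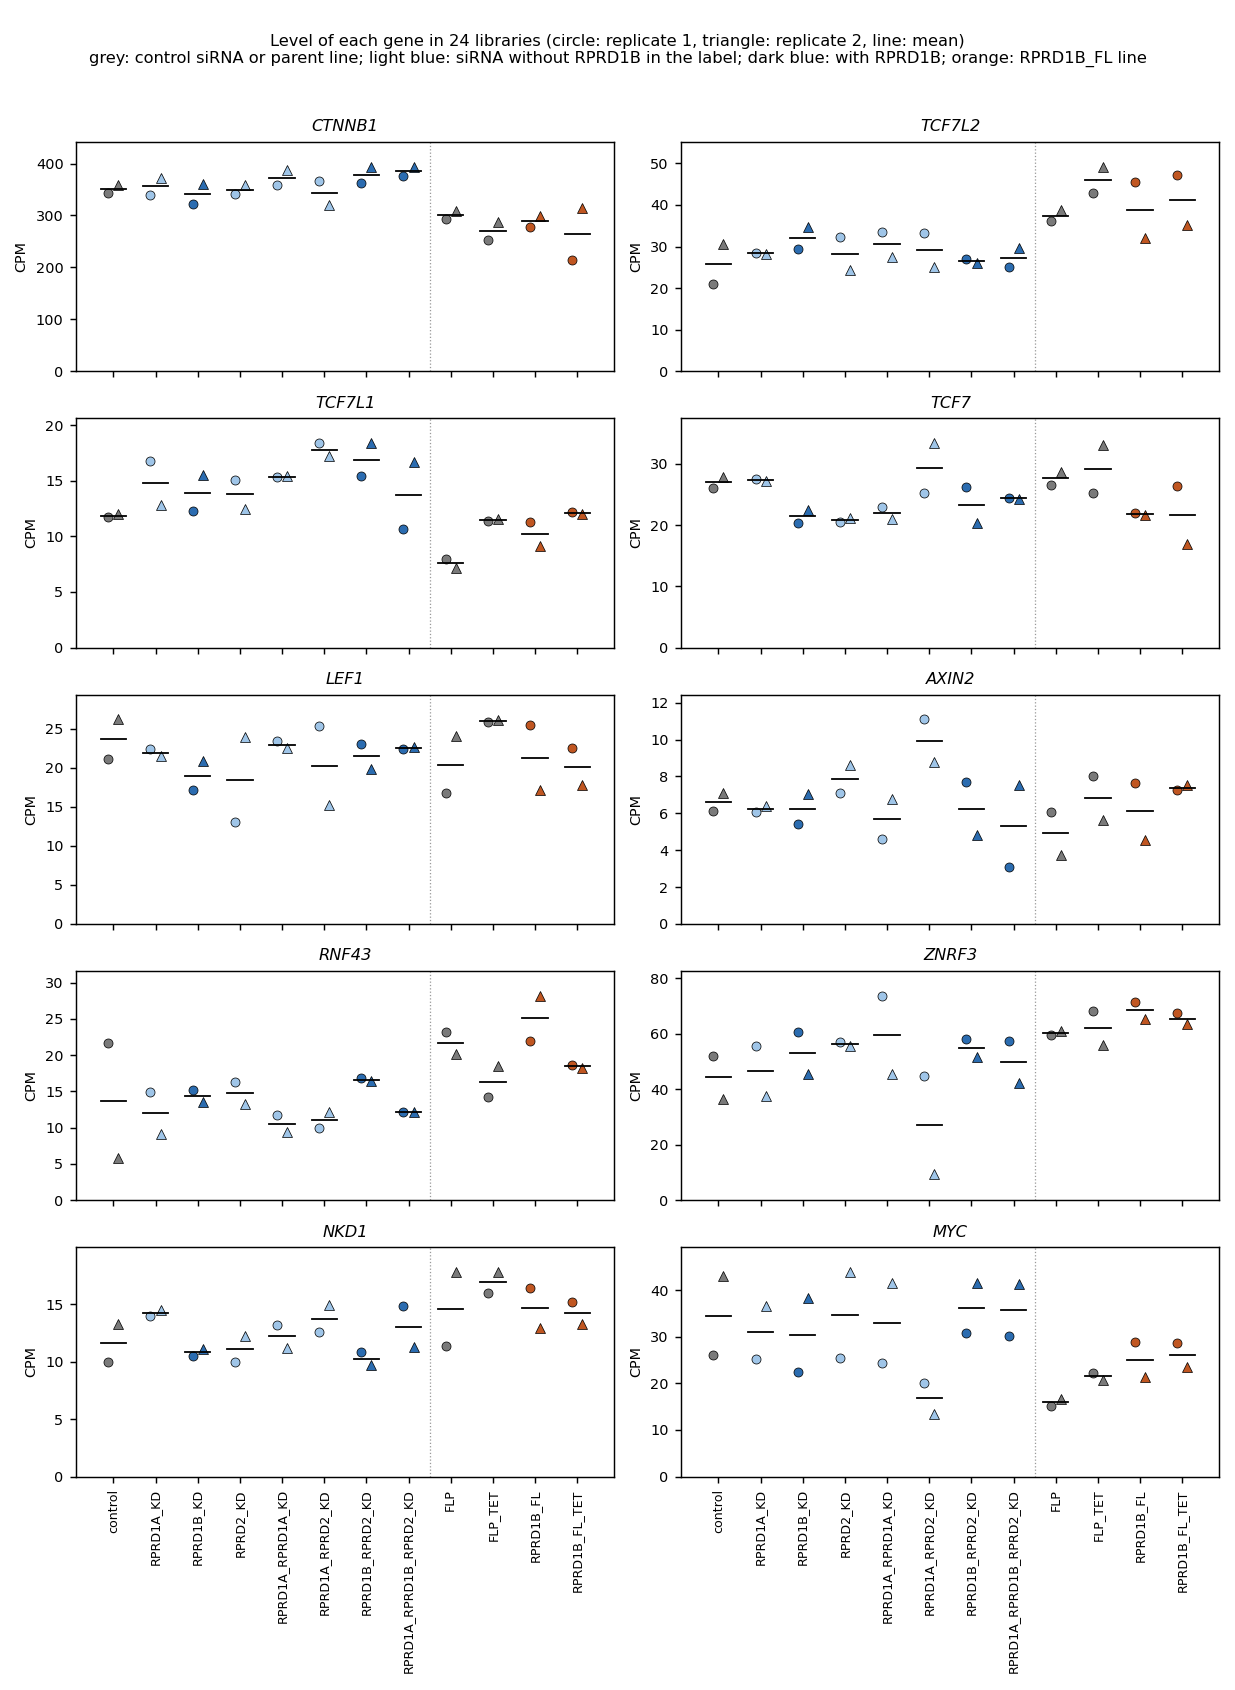
Each panel gives the CPM of 1 gene in the 24 libraries by group (circles and triangles, libraries numbered 1 and 2 in the labels; lines, group means), HEK293T left and Flp-In right of the dotted line. With the TMM scaling shown, CTNNB1 is lower in every Flp-In library (at most 314 CPM) than in any HEK293T library (at least 321 CPM). Without TMM factors the lines overlap. MYC and ZNRF3 have their lowest values, 13.5 and 9.45 CPM, in the second RPRD1A_RPRD2_KD library.

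AXIN2 (chr17:65528563-65561647, minus strand) encodes axin 2, a scaffold of the destruction complex and the most commonly used β-catenin target, induced in many tissues. It was the scarcest of the 10, with 6 to 26 counts per library, so counting error is widest for this gene. Its levels were 3.06 to 11.1 CPM in HEK293T and 3.73 to 8.01 CPM in Flp-In. Control cells had 6.11 and 7.1 CPM and RPRD1B_KD cells 5.44 and 7.06 CPM. RPRD1B_RPRD2_KD had 7.69 and 4.83 CPM against 7.11 and 8.63 CPM in RPRD2_KD, and RPRD1A_RPRD1B_RPRD2_KD had 3.06 and 7.52 CPM against 11.1 and 8.78 CPM in RPRD1A_RPRD2_KD. The pairs overlapped except the last, in which the libraries with RPRD1B siRNA were lower. AXIN2 had the most negative siRNA effect of the 10, -0.4 (SE 0.24, 95% interval -0.91 to 0.11, edgeR adjusted p = 0.808). It was -0.24 without the first and -0.67 without the second RPRD1A_RPRD1B_RPRD2_KD library. Raised RPRD1B gave 7.24 and 7.56 CPM against 8.01 and 5.61 CPM, a difference of 0.1 (-0.69 to 0.89), and RPRD1B_FL against FLP gave 7.65 and 4.57 CPM against 6.08 and 3.73 CPM, a difference of 0.36 (-0.5 to 1.22). The gene AC004805.1 overlaps AXIN2 on the same strand. AXIN2 was the only 1 of the 10 below 0 with RPRD1B lowered and above 0 with it raised, and neither difference passed the test. These signs were shared by 2724 of the 11107 genes tested in both. The difference with RPRD1B raised ran from -0.12 to 0.38 with single libraries left out.

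RNF43 (chr17:58352500-58417595, minus strand) and ZNRF3 (chr22:28883592-29057487, plus strand) encode membrane ubiquitin ligases that remove Frizzled receptors from the cell surface. RNF43 was at 5.77 to 21.7 CPM in HEK293T, and both extremes were the control libraries, with 21.7 and 5.77 CPM, so its comparisons with control rest on a wide spread. Flp-In libraries had 14.2 to 28.2 CPM. RPRD1B_RPRD2_KD (16.8 and 16.4 CPM) lay above RPRD2_KD (16.3 and 13.3 CPM), and the other matched pairs overlapped. The siRNA effect was 0.14 (95% interval -0.36 to 0.65), RPRD1B_FL_TET against FLP_TET gave 0.17 (-0.36 to 0.7) and RPRD1B_FL against FLP gave 0.22 (-0.27 to 0.7). RNF43 overlaps SUPT4H1 on the same strand at its 3′ end, and reads there could be split between them.

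ZNRF3 was at 9.45 to 73.8 CPM in HEK293T, median 52, and at 56.1 to 71.4 CPM in Flp-In. Control cells had 52.2 and 36.4 CPM, RPRD1B_KD 60.6 and 45.4 CPM, RPRD2_KD 56.9 and 55.7 CPM, and RPRD1B_RPRD2_KD 58 and 51.7 CPM, with each pair overlapping. RPRD1A_RPRD2_KD had 44.8 and 9.45 CPM, the lower from 28 counts in the library that stood apart, beside 57.6 and 42.2 CPM in RPRD1A_RPRD1B_RPRD2_KD. The siRNA effect on ZNRF3 was the largest positive one of the 10, 0.4 (SE 0.25, 95% interval -0.13 to 0.94, edgeR adjusted p = 0.814), and was 0.12 without the second RPRD1A_RPRD2_KD library. Without the first library of that group, which leaves the library that stood apart as the only one of its group, ZNRF3 was called higher (0.89, edgeR adjusted p = 0.0146). RPRD1A_RPRD2_KD against control behaved alike: -0.79 with both libraries (edgeR adjusted p = 0.736), -2.25 without the first (adjusted p = 0.0035) and 0.04 without the second. In Flp-In the values were 67.4 and 63.6 CPM against 68.1 and 56.1 CPM with tetracycline (0.06, 95% interval -0.3 to 0.42) and 71.4 and 65.5 CPM against 59.7 and 61.1 CPM without it (0.18, -0.17 to 0.54). The libraries overlapped with tetracycline, and without it RPRD1B_FL lay above FLP. ZNRF3 has an antisense gene, ZNRF3-AS1.

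NKD1 (chr16:50548330-50649249, plus strand) encodes a Dishevelled-binding inhibitor and is a common β-catenin target. It was at 9.67 to 14.9 CPM in HEK293T and 11.4 to 17.8 CPM in Flp-In. The siRNA effect was -0.1 (95% interval -0.44 to 0.25). RPRD1B_FL_TET had 15.2 and 13.3 CPM against 16 and 17.8 CPM in FLP_TET, without overlap, a difference of -0.25 (-0.82 to 0.32) that did not pass the test, and RPRD1B_FL against FLP gave -0.01.

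MYC, on chromosome 8, encodes a transcription factor that promotes growth and proliferation and is a classical β-catenin and TCF4 target in colon cells, though many other pathways also control it. In HEK293T it was at 26.1 and 43 CPM in control, 25.2 and 36.7 CPM in RPRD1A_KD, 22.5 and 38.3 CPM in RPRD1B_KD and 25.5 and 43.9 CPM in RPRD2_KD. It was at 24.4 and 41.6 CPM in RPRD1A_RPRD1A_KD, 30.7 and 41.6 CPM in RPRD1B_RPRD2_KD and 30.1 and 41.4 CPM in RPRD1A_RPRD1B_RPRD2_KD. These 7 groups overlapped, and in each the library numbered 2 had the higher value. RPRD1A_RPRD2_KD departed from this, with 20 and 13.5 CPM, both below every other HEK293T library. The log2 difference from control was -1.11 (SE 0.39, 95% interval -1.93 to -0.29), with an unadjusted p of 0.0109 and an edgeR adjusted p of 0.623, where 7.07% of all genes had an unadjusted p under 0.05 and 0.00845% were called. Without the second RPRD1A_RPRD2_KD library it was -0.79, which sets a library numbered 1 against control libraries of both numbers. With the replicate number also a term in the fit it was -0.43.

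The RPRD1B siRNA effect on MYC was 0.33 (SE 0.21, 95% interval -0.11 to 0.78, edgeR adjusted p = 0.814). Of its 3 matched pairs, only the one with RPRD1A_RPRD2_KD as reference did not overlap: the group means were 30.4 against 34.6 CPM, 36.2 against 34.7 CPM, and 35.7 against 16.8 CPM. Without the second RPRD1A_RPRD2_KD library the effect was 0.23, and over all alternative settings it ran from 0.12 to 0.49. In Flp-In, FLP had 15.2 and 16.6 CPM, FLP_TET 22.2 and 20.8 CPM, RPRD1B_FL 28.8 and 21.3 CPM and RPRD1B_FL_TET 28.6 and 23.6 CPM. The untreated parent was lowest, and RPRD1B_FL libraries did not overlap the parent's under either condition. How many of all genes separate in this way was not counted, so this is not shown to be particular to MYC. RPRD1B_FL lay above FLP by 0.65 (SE 0.24, 95% interval 0.16 to 1.15), with an unadjusted p of 0.0122 and an edgeR adjusted p of 0.22, in a comparison in which 13.3% of all genes had an unadjusted p under 0.05. RPRD1B itself did not pass the test there. With tetracycline, where RPRD1B did, the MYC difference was 0.27 (-0.21 to 0.75, edgeR adjusted p = 0.779).

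**Figure D3:**
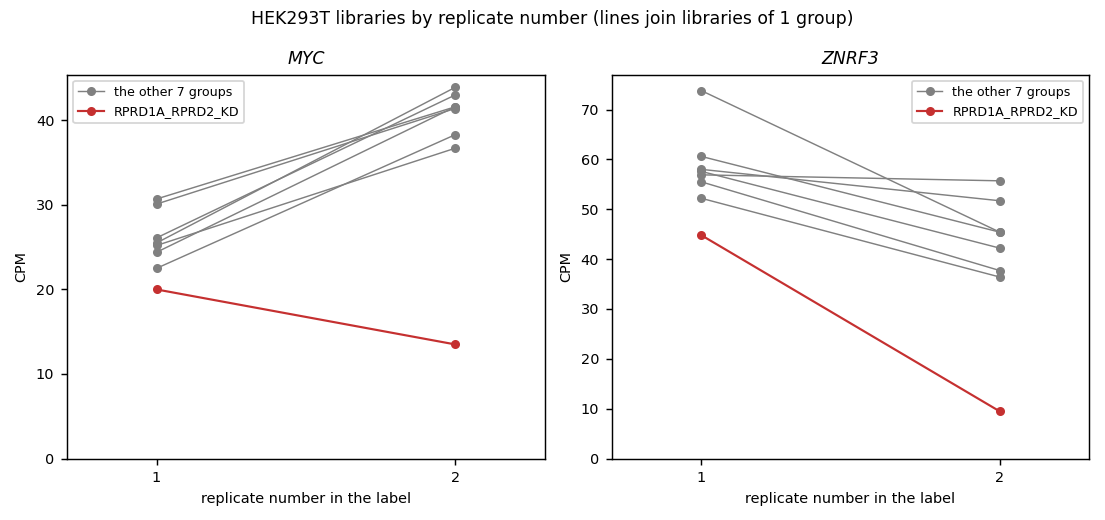
The panels give the CPM of MYC and ZNRF3 in the 16 HEK293T libraries by the replicate number in their labels, with lines joining the 2 libraries of a group and RPRD1A_RPRD2_KD in red. The library numbered 2 is higher for MYC in 7 of 8 groups (20 to 30.7 CPM in number 1, 13.5 to 43.9 CPM in number 2) and lower for ZNRF3 in 8 of 8 (44.8 to 73.8 CPM in number 1, 9.45 to 55.7 CPM in number 2).

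In HEK293T, MYC and ZNRF3 thus differed between the 2 libraries of a group. The median ratio of the library numbered 2 to that numbered 1 was 1.55 for MYC and 0.714 for ZNRF3. RNF43 was lower in number 2 in 7 of 8 groups and CTNNB1 higher in 7 of 8. In Flp-In, number 2 was the higher in 1 of 4 groups for both MYC and ZNRF3. What the numbers stand for is not given in the labels, and their part in the results was not tested beyond the fits with the number as a term that are listed with the alternatives.

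The 12 groups were also ordered by mean level. Neighbours in such an order have close means, so their overlap is favoured by the ordering and only describes the levels. It was not computed for other genes. Of 11 neighbouring pairs of groups, 10 overlapped for CTNNB1, TCF7L2, TCF7, LEF1, AXIN2 and MYC, 9 for RNF43, 7 for TCF7L1 and 11 for ZNRF3 and NKD1. For CTNNB1 and TCF7L2 the break fell between a HEK293T group and a neighbouring Flp-In group. CTNNB1 was lower in Flp-In by a ratio of medians of 0.807 and TCF7L2 higher by 1.44. For TCF7L2, single libraries of the 2 lines still overlapped (HEK293T up to 34.6 CPM, Flp-In from 32 CPM). The 2 lines were processed in the same series but not tested against each other, since line and experiment cannot be told apart. For MYC the break fell between FLP_TET and RPRD1A_RPRD2_KD, and for AXIN2 between RPRD1A_RPRD2_KD, its highest group, and RPRD2_KD.

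The raising and lowering of RPRD1B were then set against each other in a single fit of all 24 libraries, as the log2 effect in RPRD1B_FL_TET against FLP_TET minus the siRNA effect. RPRD1B differed by 2.94 (SE 0.35, edgeR adjusted p = 1.68e-05), and 0.242% of all genes were called. Of the 10 Wnt genes, 0 were called by edgeR or DESeq2 and 0 had an unadjusted p under 0.05, with adjusted p from 0.887 to 1. AXIN2 had the largest difference, 0.52 (SE 0.46, 95% interval -0.43 to 1.46). LEF1 differed by -0.39 (-1.06 to 0.28), ZNRF3 by -0.32 (-1.13 to 0.48), TCF7 by -0.27 (-0.82 to 0.28) and TCF7L2 by -0.2 (-0.74 to 0.34). CTNNB1, NKD1, MYC, RNF43 and TCF7L1 lay between -0.13 and 0.05. A gene that follows RPRD1B would have opposite signs in the 2 effects. This held for 4 of the 10, AXIN2 in the direction of RPRD1B and CTNNB1, TCF7L2 and LEF1 against it, a share of 40% beside 50% of the 11107 genes tested in both. With the second RPRD1A_RPRD2_KD library left out of the siRNA effect it held for 2 of the 10, AXIN2 and CTNNB1.

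The other knockdowns gave the same count. In each of RPRD1A_KD, RPRD1B_KD and RPRD2_KD against control, 0.00845% of all genes were called, and in RPRD1A_RPRD1A_KD, RPRD1B_RPRD2_KD and RPRD1A_RPRD1B_RPRD2_KD 0.0169%. These calls were RPRD1A, RPRD2 or GIPC1. GIPC1 was called lower in RPRD1B_KD (-1.89), RPRD1B_RPRD2_KD (-1.49), RPRD1A_RPRD1B_RPRD2_KD (-1.57) and RPRD1A_RPRD1A_KD (-1.5), the last of which does not name RPRD1B in its label. In these 6 comparisons 0 of the 10 Wnt genes were called by edgeR or DESeq2 and 0 had an unadjusted p under 0.05, with log2 fold changes from -0.37 to 0.51 and medians from -0.06 to 0.06. RPRD1A_KD, in which RPRD1A fell by 2.98 (SE 0.25, edgeR adjusted p = 1.94e-05), had 6 of the 10 above 0 and a range of -0.17 to 0.31. All 7 comparisons share the control libraries.

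Tetracycline alone was tested in the parent line, where 1.02% of all genes were called. Of the 10, 0 were called by edgeR or DESeq2 and 0 had an unadjusted p under 0.05, with 8 above 0, a median of 0.23 beside -0.01 over all genes, and a smallest adjusted p of 0.225. After correction for transcript GC content 5 of 10 were above 0 and the median was 0.06. In the RPRD1B_FL line edgeR called 0% of all genes for tetracycline (6.13% had an unadjusted p under 0.05), RPRD1B included (0.77, adjusted p = 0.401). The 10 had a median of -0.04, with 0 called by either tool and 0 at an unadjusted p under 0.05. The difference between the 2 tetracycline effects, where edgeR called 0% of all genes (3.99% at an unadjusted p under 0.05), was below 0 for 9 of the 10 (7 after GC correction), with a median of -0.23 and 0 called by either tool or at an unadjusted p under 0.05.

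**Figure D4:**
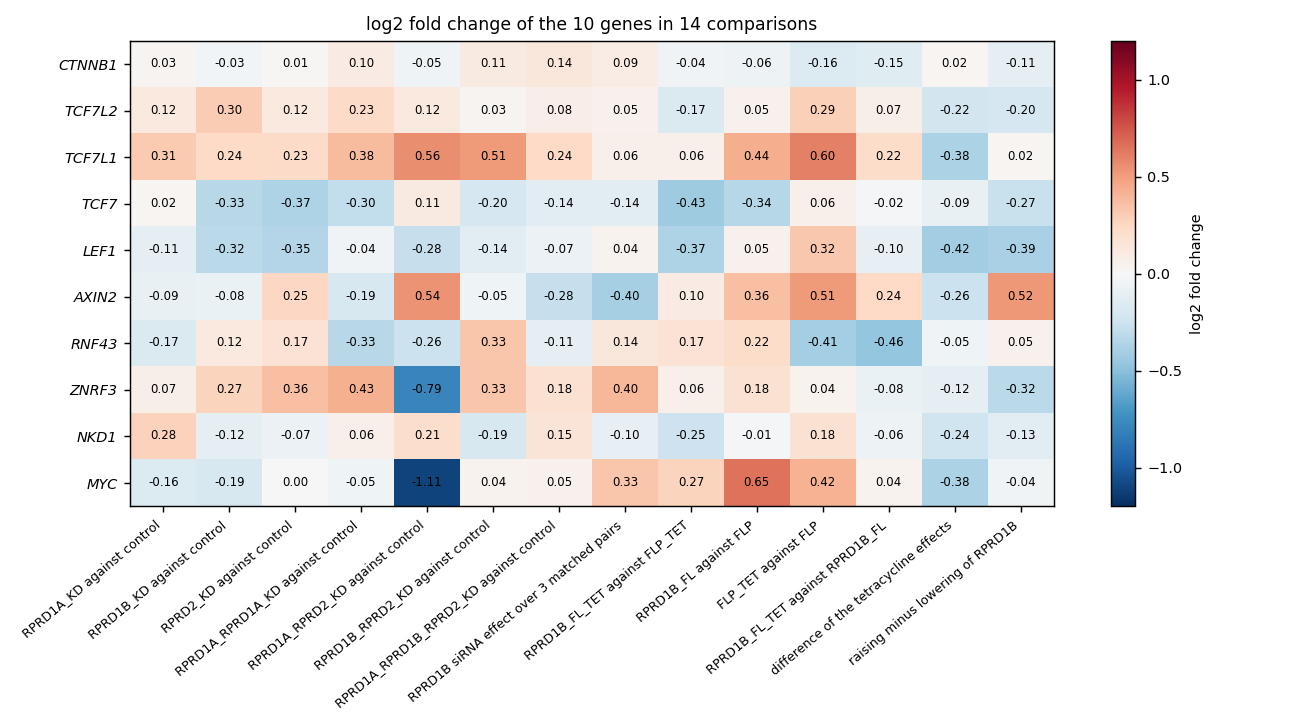
Cells give the log2 fold change (edgeR, colour scale from -1.2 to 1.2) of the 10 genes, in rows, for the 14 comparisons, in columns. The 2 values farthest from 0 are those of MYC (-1.11) and ZNRF3 (-0.79) in RPRD1A_RPRD2_KD against control. Of the 140 values 0 passed the test, in comparisons that called at most 1.18% of all genes.

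Correlations among the 10 genes centred near 0. Over the 24 libraries, with log2(CPM + 1) centred within each line, the 45 pairs among them had Pearson's r from -0.53 to 0.58 with a median of 0.01, and 23 were above 0. The highest was TCF7 with NKD1 and the lowest RNF43 with NKD1 and TCF7 with ZNRF3. These are descriptions over libraries that share groups, depth and GC differences. Counting error pulls r towards 0 for scarce genes such as AXIN2 (6 to 26 counts), and other gene sets were not compared. By the same measure, among 8054 genes with a mean of 10 CPM or more in each line, CTNNB1 was most like GGH (0.82), ECT2 (0.8) and CDK1 (0.79), and MYC was most like TM9SF2 (0.9), INTS14 (0.89) and ALDH18A1 (0.86). AXIN2, under 10 CPM, was not compared.

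Of 117 other Wnt pathway genes in the tables, 76 could be tested in HEK293T and 82 in Flp-In. Lowering RPRD1B gave 0 calls among the 76 by edgeR, with 4 higher and 2 lower at an unadjusted p under 0.05. These 6 are a share of 7.89%, near the 6.42% of all genes. The 2 with the lowest p were the ligand WNT10B and the receptor RYK, a kinase-related Wnt coreceptor. WNT10B had 34.5 and 35 CPM in control and 14.9 and 25.9 CPM in RPRD1B_KD, 29.3 and 35.7 CPM in RPRD2_KD and 24.8 and 25.6 CPM in RPRD1B_RPRD2_KD, and 30.5 and 30.4 CPM in RPRD1A_RPRD2_KD and 16.8 and 26.3 CPM in RPRD1A_RPRD1B_RPRD2_KD. In all 3 pairs the libraries with RPRD1B siRNA were the lower, without overlap. WNT10B was picked for its low p in the same effect, so this separation adds no support. How many of all genes separate in this way was not counted. The effect on WNT10B was -0.53 (SE 0.16, unadjusted p = 0.00378, edgeR adjusted p = 0.683). It was called in 1 of 22 alternative settings, the replicate block without the second RPRD1A_RPRD2_KD library (-0.59, adjusted p = 0.0218), and ranged from -0.68 to -0.42. RYK differed by 0.38 (SE 0.15, edgeR adjusted p = 0.702), with 34.1 CPM in the library that stood apart and 75.3 to 115 CPM in the other 15 HEK293T libraries. Without that library RYK differed by 0.21 (adjusted p = 1), and it was called only without the first library of the same group (0.61, adjusted p = 0.00321).

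By class, the siRNA effect had medians of 0.12 for 8 ligands, -0.02 for 18 receptors and receptor partners, 0.07 for 13 genes of the destruction complex, 0.03 for 16 nuclear cofactors, 0.05 for 5 secreted and feedback inhibitors and 0.06 for 16 further targets, with 0 calls in each. In RPRD1B_FL_TET against FLP_TET, 2 of the 82 were called (2.44%, beside 1.11% of all genes), both of them inhibitors. Both were lower, as were 106 of the 133 genes called in all. NKD2 (chr5:1008829-1038943, plus strand), the paralog of NKD1, had 11.4 and 5.34 CPM against 21.2 and 21.1 CPM (-1.32, SE 0.31, edgeR adjusted p = 0.0336). SFRP1, a secreted Frizzled-related protein that binds Wnt ligands, had 12.9 and 12.5 CPM against 27.1 and 29.7 CPM (-1.17, SE 0.24, edgeR adjusted p = 0.0122). Both calls were lost with DESeq2 (adjusted p = 0.152 and 0.0699) and without either FLP_TET library (NKD2 0.28 and 0.263, SFRP1 0.117 and 0.203). The NKD2 call was also lost without the second RPRD1B_FL_TET library (-0.92, adjusted p = 0.211).

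Without tetracycline the RPRD1B_FL libraries also lay below those of the parent for both inhibitors. NKD2 had 6.2 and 8.75 CPM in RPRD1B_FL against 12.2 and 15.8 CPM in FLP, and SFRP1 14.9 and 13.7 CPM against 19.4 and 20.6 CPM, neither passing the test (-0.91 and -0.48, edgeR adjusted p = 0.207 and 0.402). All 8 inhibitors tested were below 0 in both line comparisons, with medians of -0.81 and -0.89, and of the 8 DESeq2 gave 7 below 0 with tetracycline. Over all genes, 50.6% and 50.9% lay above 0. SFRP5 had 5 to 13 counts in parent libraries and 1 to 5 in those of the RPRD1B_FL line, APCDD1 9 to 19 and 1 to 5, and KREMEN2 8 to 31 and 6 to 10. SFRP5, APCDD1 and KREMEN2 entered the test through parent libraries, where their means were higher, so their signs are no support. The count of 8 below 0 and the medians include them and are no support either. Both comparisons also share the difference between the lines. NKD2 lies on the short arm of chromosome 5, whose 90 tested genes had a median of -0.52 in both comparisons and included 16 and 22 genes called lower. The part of this arm in the NKD2 result was not tested. SFRP1 was listed at 0 in 15 of the 16 HEK293T libraries, so its siRNA effect could not be tested.

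In RPRD1B_FL against FLP, 1 of the 82 was called, a share of 1.22% that is near the 1.18% of all genes. CDX2, a homeobox factor of intestinal identity and a reported Wnt target, had 134 and 140 CPM against 89.7 and 86.9 CPM (0.64, SE 0.16, edgeR adjusted p = 0.0483). With tetracycline it had 150 and 134 CPM against 83.8 and 101 CPM (0.61, edgeR adjusted p = 0.0717, and 0.0136 with the GC correction). The call is marginal: it was lost with any single library left out, with a mean count of 50 or more required (adjusted p = 0.0576), with only the compared groups in the fit (adjusted p = 0.0503) and with the replicate number as a block (adjusted p = 0.0661). In HEK293T, CDX2 ranged from 88.6 to 172 CPM, although the colon epithelial markers CDX1 and CDH17 were at 0.

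**Figure D5:**
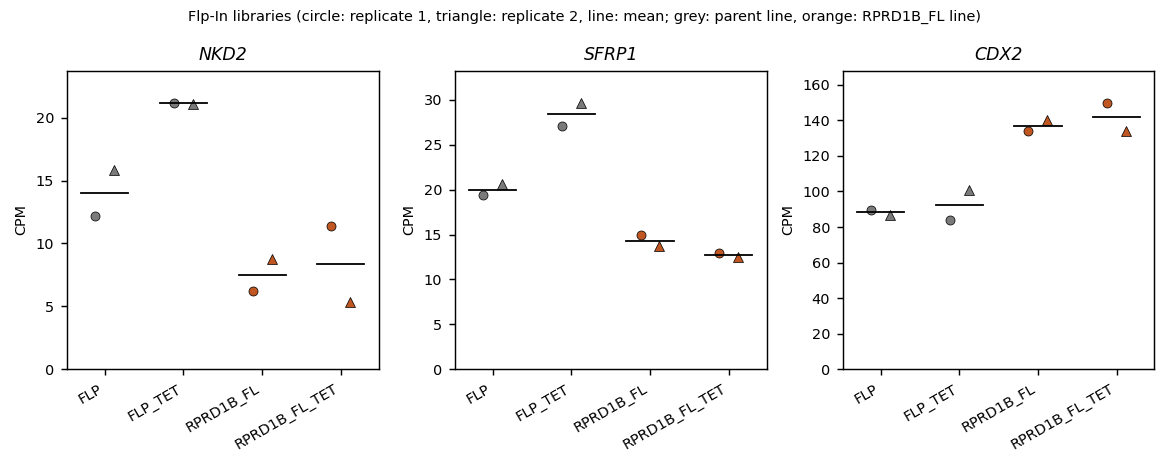
The panels give the CPM of NKD2, SFRP1 and CDX2 in the 8 Flp-In libraries (circles and triangles, libraries numbered 1 and 2; lines, group means; grey, parent line; orange, RPRD1B_FL line). NKD2 and SFRP1 lie lower and CDX2 higher in the RPRD1B_FL line both without and with tetracycline, for example SFRP1 at 12.5 to 14.9 CPM against 19.4 to 29.7 CPM.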

How the data were processed

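Polyadenylated RNA of 24 cell-line samples was sequenced with a kit for transcript 3′ ends, per the labels' protocols. The authors deposited whole-number read counts by gene name, 1 table per sample, with 58138 names and 5 closing rows that were left out. Reads outside genes were 15.3% to 36.7% of a table. Per the submitters' processing notes, FastQC, STAR, HTSeq, DESeq2 and build GRCh38 were used. Versions, annotation, strand setting and filters are not given in the sources used here.

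Groups come from the labels. The counts were fitted with edgeR 4.0.16, which uses limma 3.58.1, under R 4.3.3: filterByExpr (minimum count 10, minimum total 15), TMM scaling, quasi-likelihood test, Benjamini-Hochberg adjustment over all genes tested (11834 in HEK293T, 11948 in Flp-In, 12803 over both lines), called at an adjusted p under 0.05. All groups of a line entered 1 fit. Printed CPM use 1 TMM scaling over the 24 libraries. Means and differences are over 2 libraries per group, and intervals cover the spread between libraries. The floors reflect counting error alone, and no molecular identifiers are described. Scaling to library size hides any shift shared by all transcripts, and in bulk RNA fewer expressing cells and less RNA per cell cannot be told apart.

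The 10 genes and all lists were chosen with earlier results of these data known. Named beside them are the targeted genes, other Wnt genes called at an adjusted p under 0.05 (at most 6 per comparison, by largest fold change) or, for the siRNA effect, where none was called, the 2 with the lowest p, and the 3 genes most like CTNNB1, AXIN2 and MYC. GIPC1, RASL10B and NKD2's chromosome arm, and the overlap of single pairs of groups, were singled out after their values were seen. The overlap of groups was not counted over all genes. Positions, overlaps and GC content are from GENCODE release 29 on GRCh38, which gave a GC content for 54814 names, and promoter windows are from RefSeq. 1 further marker list is not reported here. The code was tested on simulated data. Alternatives were RLE size factors, DESeq2 1.42.0, the filter on low counts left out or raised to a mean of 50 or more counts, the replicate number as a block, a GC correction (lowess span 0.3) with and without that block, only the compared groups, omission of the second RPRD1A_RPRD2_KD library, each library left out in turn, and CPM without TMM factors.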

Additional observations from a re-analysis of the deposited data

How the results depend on the processing

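The count of called members was 0 in 206 of 208 alternative fits of the 14 comparisons. In the other 2 it was 1, ZNRF3, when the first RPRD1A_RPRD2_KD library was left out, in RPRD1A_RPRD2_KD against control and in the siRNA effect. A group left with 1 library is assumed to vary like the other groups. Of 977 alternative fold changes, 58 changed sign, 0 of them called. In the RPRD1B siRNA effect, leaving out single libraries gave -0.03 to 0.16 for TCF7L2, -0.06 to 0.16 for TCF7L1, -0.09 to 0.21 for LEF1 and -0.09 to 0.54 for RNF43. In RPRD1B_FL_TET against FLP_TET, leaving out single libraries gave -0.35 to 0.22 for CTNNB1, -0.38 to 0.01 for TCF7L2, -0.12 to 0.38 for AXIN2, -0.02 to 0.37 for RNF43 and -0.06 to 0.21 for ZNRF3. In RPRD1B_FL against FLP, leaving out single libraries gave -0.11 to 0 for CTNNB1, -0.22 to 0.28 for TCF7L2, -0.26 to 0.36 for LEF1, -0.05 to 0.71 for AXIN2 and -0.27 to 0.37 for NKD1. In raising minus lowering, leaving out single libraries gave -0.45 to 0.13 for CTNNB1, -0.09 to 0.13 for TCF7L1, -0.38 to 0.25 for RNF43 and -0.21 to 0.1 for MYC. Without a change of sign, the same omissions moved the siRNA effect from -0.67 to -0.24 for AXIN2, 0.12 to 0.89 for ZNRF3, 0.19 to 0.49 for MYC, -0.2 to -0.08 for TCF7 and -0.16 to -0.02 for NKD1. They moved RPRD1B_FL_TET against FLP_TET from -0.78 to -0.17 for TCF7 and 0.14 to 0.38 for MYC, RPRD1B_FL against FLP from 0.03 to 0.4 for RNF43 and 0.29 to 0.58 for TCF7L1, and raising minus lowering from 0.28 to 0.77 for AXIN2, -0.83 to -0.07 for ZNRF3, -0.64 to -0.04 for TCF7 and -0.44 to -0.05 for TCF7L2. For ZNRF3 in RPRD1A_RPRD2_KD against control the range was -2.25 to 0.04. Without the second RPRD1A_RPRD2_KD library the siRNA effect was -0.03 for TCF7L2 and -0.09 for LEF1 (-0.03 and -0.11 with the replicate block as well), and raising minus lowering was -0.03 for RNF43 and 0.03 for MYC (-0.07 and 0.1 when blocked). Under GC correction, raising minus lowering was -0.03 for TCF7L1 and -0.03 for RNF43 (-0.03 and -0.04 with the block), and with GC correction and block CTNNB1 was at 0 in RPRD1B_FL against FLP. NKD1 was at 0 there without a filter. The causes were not tested. Of 120 group means, 22 moved by more than 1 SD without TMM factors.

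Same-numbered libraries deviated together in HEK293T (mean r 0.336 over 28 pairs of groups, -0.012 to 0.527, across genes) but not in Flp-In (mean -0.017 over 6 pairs, -0.352 to 0.454), and the labels do not say that a number marks a shared source, so the numbers were not taken as pairs. With the replicate block the count of members called was 0 in all 14 comparisons, the siRNA effect was 0.35 for MYC, 0.42 for ZNRF3 and -0.39 for AXIN2, and MYC in RPRD1A_RPRD2_KD was at -1.11 (-0.43 when the second library was also omitted). Counts over all genes moved more: the siRNA effect called 3 genes, 11 with the block, 53 without a filter and 335 without the first RPRD1A_RPRD2_KD library. Omission of that library took RPRD1A_RPRD2_KD against control from 1 to 573. The 7 knockdowns against control, with 1 or 2 calls each, had 1 to 13 with the block and 25 to 167 when the second RPRD1A_RPRD2_KD library was omitted as well (RPRD2_KD 167, RPRD1A_RPRD1B_RPRD2_KD 129). RPRD1B_FL_TET against FLP_TET called 133, 256 with the GC correction and 28 or 34 without an FLP_TET library. RPRD1B_FL against FLP called 141 and 304 with the GC correction, FLP_TET against FLP 122, 1 with the block and 762 without a filter, and raising minus lowering 31, 66 with the block. AXIN2, at 6 to 26 counts, is limited by depth.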
